A study of Mus musculus with 18 samples.

Results

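The genes described here encode the proteins of the cytosolic ribosome. They were chosen by symbol: Rpl or Rps followed by a number, Rplp0 to Rplp2, and Rpsa, without the Rps6k kinases, which share the prefix but are not ribosomal proteins. The rule took 86 of the 20295 genes in the count table. Of these, 31 were standard proteins of the small (40S) subunit and 46 of the large (60S) subunit, 7 were duplicate-type genes such as Rpl22l1, 1 was a pseudogene row and 1, Rps19bp1, encodes a regulator of the deacetylase SIRT1 and no subunit. Enough reads for testing were present for 82 members of 12156 genes tested. The duplicates Rpl10l, Rpl39l and Rpl3l and the pseudogene Rpl31-ps12 were not tested, and none of these 4 exceeded 10 counts in any library.

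RNA-seq was done on 18 samples in 6 groups of 3. All were mouse brown adipocytes differentiated for 7 days from 1 preadipocyte line, immortalised with SV40 large T antigen, so no other genotype was compared. Cells received Vehicle (DMSO), isoproterenol (ISO, a β-adrenergic agonist, 100 nM) or SR-3420 (a ligand of ABHD5 that activates ATGL) for 3 h. SR-3420 is at 10 µM per the labels, and the study's text gives another dose. In the other 3 groups (Lipase Inh. + Vehicle, Lipase Inh. + ISO, Lipase Inh. + SR-3420) inhibitors of both ATGL and HSL, the lipases that release fatty acids from stored triacylglycerol, were added 1 h before the stimulus. The questions were which transcripts β-adrenergic stimulation and direct lipase activation change, and which of these changes need lipolysis.

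Each ribosome holds a single copy of nearly every ribosomal protein, and growing cells spend much of their transcription on these genes. Mammalian ribosomal protein transcripts typically start at a C within a run of pyrimidines, the 5′ terminal oligopyrimidine (TOP) motif, through which their translation follows mTORC1 activity. Their mRNA levels usually vary little, because much of their control is at translation. In brown adipocytes β-adrenergic signals raise cAMP and also feed into mTORC1.

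Library totals ran from 4263755 counts in Lipase Inh. + SR-3420 replicate 2 to 21205032, and the other 17 held at least 10310447. In that shallowest library 18.3% of counts fell on 1 gene, Lars2, against at most 0.121% elsewhere, so results that use this group rest partly on it. TMM scaling, which centres the bulk of genes, gave factors of 1.09 to 1.12 in Vehicle and 0.885 to 0.901 in ISO. TMM and plain scaling by total counts therefore placed the ISO comparisons about 0.3 apart on the log2 scale (the median of all genes moved from -0.02 to -0.33), and both are given below. The labelled cell type had its markers, and Fabp4, Adipoq and Plin1 were abundant in every library. Ucp1 ranged from 1.39 to 789 CPM (counts scaled to a common library size). The macrophage gene Ptprc was at 0 in all libraries, but Cd68, another macrophage gene, had 1.96 to 5.88 CPM. Preadipocyte genes were present too, with Pdgfra at 12.3 to 30.7, Dlk1 at 4.87 to 10.8 and Ly6a at 2.80 to 9.63 CPM. In bulk RNA, fewer cells of a type and less RNA per cell cannot be told apart. The 18 samples came from 3 independent experiments per the study's methods.

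Runs of the TOP kind can be looked for around the annotated transcription starts. RefSeq promoters of GRCm38.p6 were found for 66 of the 86 members (78 promoters in all), and a C followed by at least 6 pyrimidines stood within 50 bases of the start, on the sense strand, in 82.1% of them against 40.7% of all 32851 promoters. The runs of the members whose values carry the results below are printed 5′ to 3′ on the gene's strand, with the pyrimidine run in capitals:
Rpl9: gacgttCTCTCTTTgccccatctac
Rpl12: gtgcaaCTTTCTTCggt
Rps12: cgccggCCTTTTCCCCTgccgccgccga
Rpl22: gtctgaCTCCTCCCTTTCCCgacagccg
Rplp2: cagcgtCTTCCTTTCgccgccggacgcc
Rpl13a: acaagaCCTCCTCCTTTCCCaggcggct
Rpl41: agtaggCCTCCCTCTC
Rps6: gtcgggCCTCTTTTTCgtgacgcctccc
By position from the annotated start, the runs begin at -4 for Rplp2 and -1 for Rps6, and both span the start. Those of Rpl13a and Rps12 begin after it, at 2 and 8. Those of Rpl9, Rpl12 and Rpl41 begin further in, at 31, 39 and 40, and that of Rpl22 lies before the start, at -39. The runs that do not span the annotated start do not mark a TOP motif there. The sequences lie at chr5:65391382-65391406 (minus strand) for Rpl9, chr2:32961745-32961761 (plus) for Rpl12, chr10:23787180-23787207 (minus) for Rps12 and chr4:152325681-152325708 (plus) for Rpl22. Rplp2 is at chr7:141447641-141447668 (plus), Rpl13a at chr7:45128722-45128749 (minus), Rpl41 at chr10:128549119-128549134 (minus) and Rps6 at chr4:86857347-86857374 (minus). Rplp0 has a promoter in the table and no such run in this window.

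The summed counts of the 86 genes were under 1% of each library's deposited counts. These counts keep 1 read per position and length, and how reads that fit several places were counted is not given. The share is therefore no measure of the genes' part of the mRNA. The share of all counts was 0.877%, 0.774% and 0.723% in the Vehicle samples, 0.638%, 0.674% and 0.616% in the ISO samples, and 0.615%, 0.687% and 0.603% after SR-3420. Cells given the inhibitors alone had 0.694%, 0.724% and 0.680%, those then given ISO 0.731%, 0.787% and 0.730%, and those given SR-3420 0.705%, 0.540% and 0.625%. Every ISO and SR-3420 sample lay below every Vehicle sample, whereas with inhibitors present every ISO sample lay above every unstimulated one. These are shares of total counts and carry the scaling difference named above. The 0.540% is from the library rich in Lars2, and is 0.661% when Lars2 is left out of its total. Rpl41 and Rplp0 alone gave 18.6% to 22.8% of the members' counts. Many members had their highest value in the same replicate: by TMM CPM, replicate 1 was the highest Vehicle sample for 51 of the 82 members. Replicate 2 was the highest for 49 with ISO, 64 with SR-3420, 44 with inhibitors and 51 with inhibitors and ISO. With inhibitors and SR-3420, replicates 1, 2 and 3 were the highest for 40, 25 and 17. The same was not counted over all genes.

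**Figure D1:**
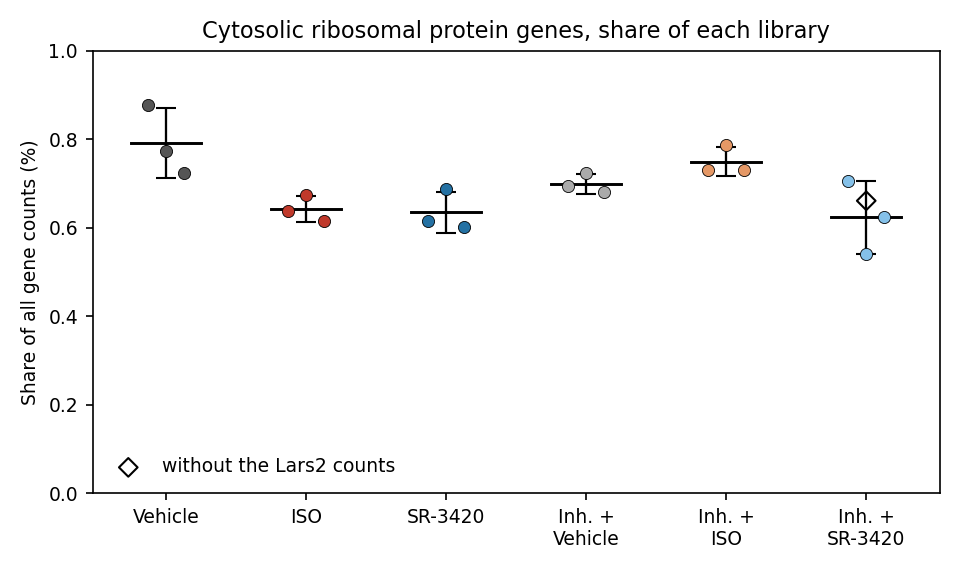
Share of each library's counts that fell on the 86 ribosomal protein genes, in percent of all counts, with 1 point per sample and the mean ± SD of each group of 3. The Vehicle samples (0.723% to 0.877%) lie above both stimulated groups, while Lipase Inh. + ISO (0.730% to 0.787%) lies above Lipase Inh. + Vehicle (0.680% to 0.724%).

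Levels per length differed widely among members. In counts per counted base of gene model, averaged over libraries, the 78 members with at least 100 counted bases ran from 0.0325 (Rpl38) to 23.3 (Rpl41, a very short basic peptide of the 60S subunit), with a median of 0.786. After Rpl41 came Rplp1 at 6.86, Rplp0 at 6.15 and Rps15 at 6.09. The authors kept 1 read per position and length, so a short abundant gene can reach a ceiling, and Rpl41 held up to 41.5 counts per base in a single library. Rps27, Rpl26, Rpl30 and Rpl34 had only 1, 23, 43 and 79 counted bases, and their values describe those bases. Rps27 lies far below all other members in the plot of changes by comparison (-1.52 with ISO and -2.10 with SR-3420 under TMM, neither called), on that single base. In mm9, at least 1 window of 50 bases of the transcript recurs elsewhere in the genome for 79 of the 83 members with a transcript, and the median member has 65.5% of its windows copied (processed pseudogenes are common in this family). How reads that fit several places were counted is not given in the sources used here, so levels of highly copied members are uncertain.

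ISO alone changed 16 of the 82 ribosomal protein genes. With TMM, edgeR's quasi-likelihood test called 15 of 82 members higher and 1 lower than in Vehicle at an adjusted p of at most 0.05. Of all genes tested 26.8% were called higher and 25.0% lower, against 18.3% and 1.22% of the members. The median log2 fold change was 0.09 over members and -0.02 over all genes. Under total-count scaling 4 members were higher and 33 lower, against 12.3% and 49.4% of all genes, with medians of -0.22 and -0.33. The members' median stood 0.11 above that of all genes under either scaling.

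Rpl9, a 60S protein, had the largest rise of the 82 members (mm9 chr5:65779603-65782670, minus strand). Its TMM CPM was 13.0, 13.6 and 13.3 in Vehicle and 38.4, 39.7 and 38.1 with ISO. The groups were far apart, with a log2 fold change of 1.54 ± 0.11 (SE), or 2.91-fold (adjusted p = 1.28e-10, edgeR), and of 1.24 under total-count scaling. Of its 50-base windows 95.2% recur elsewhere in the genome, so the reads cannot be assigned to the Rpl9 locus alone with certainty. Rpl12, which sits at the base of the stalk that recruits translation factors, had 18.6, 19.9 and 15.2 CPM in Vehicle and 29.8, 36.4 and 21.2 with ISO. The groups did not overlap, the difference was 0.71 ± 0.18 (adjusted p = 0.00222), and 49.0% of its windows are copied. Besides Rpl9, the low-level genes Rps13 and Rpl37 rose at least 2-fold, by 1.43 and 1.12 on the log2 scale, and 5.03% of all genes did so. They are named because of their size, after their values were seen. Rpl12, Rpl37, Rpl9 and Rps13 were the 4 members called higher under both scalings.

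Rpl22 and its paralogue Rpl22l1, RNA-binding 60S proteins that can replace each other in the ribosome, had opposite signs. Rpl22 (mm9 chr4:151698545-151708191, plus strand) had 145, 137 and 140 CPM in Vehicle and 124, 132 and 116 with ISO. It was the 1 member called lower, at -0.19 ± 0.07 (adjusted p = 0.0404, edgeR), but the call was lost, at values from -0.20 to -0.14, without any 1 of the 3 Vehicle samples, ISO replicate 1 or ISO replicate 3. Rpl22l1 had 18.1, 14.5 and 14.1 CPM in Vehicle and 18.8, 27.6 and 20.8 with ISO, higher in each ISO sample. It rose by 0.52 ± 0.14 (adjusted p = 0.00354), which fell to 0.33 and lost its call without ISO replicate 2, and was 0.21 under total-count scaling. The difference between the paralogues' changes was not tested.

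Rps6, the substrate of the S6 kinases, had 167, 166 and 166 CPM in Vehicle and 189, 178 and 185 with ISO, a difference of 0.15 ± 0.06 (adjusted p = 0.0348) that was -0.16 under total-count scaling. Its call was lost, at 0.13 to 0.15, without any 1 of the Vehicle samples, ISO replicate 1 or ISO replicate 3. Rps26, at the exit of the mRNA channel, had 103, 129 and 131 CPM in Vehicle and 151, 144 and 137 with ISO, at 0.26 ± 0.09 (adjusted p = 0.019). That call did not hold without Vehicle replicate 1 (0.15) or ISO replicate 1 (0.22), and its total-count value was -0.05. Rplp0, the scaffold of the P stalk, had 680, 624 and 605 CPM in Vehicle and 667, 646 and 636 with ISO. Those values overlapped (0.03, adjusted p = 0.751), and under total-count scaling the same gene stood at -0.28.

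SR-3420 alone divided the members. With TMM 11 were higher and 11 lower than in Vehicle, against 26.0% and 25.4% of all genes, and 3 rose at least 2-fold, as did 3.97% of all genes. The median was -0.10 over members and -0.02 over all genes. Under total-count scaling the counts were 7 higher and 32 lower, against 16.0% and 35.9% of all genes. All 11 members lower under TMM were also lower under total-count scaling. Of the 11 higher members, 7 were also higher under total-count scaling (Rpl12, Rpl36, Rpl37, Rpl9, Rps12, Rps13 and Rps28). The ISO and SR-3420 comparisons share their 3 Vehicle samples, so their values below are set side by side only.

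Rps12, a protein of the 40S beak, rose with SR-3420. Its CPM was 29.6, 22.8 and 20.0 in Vehicle, 42.1, 43.8 and 40.5 with SR-3420 and 27.8, 30.3 and 26.4 with ISO. The SR-3420 samples lay above all samples of both other groups, at 0.79 ± 0.11 or 1.73-fold over Vehicle (adjusted p = 6.47e-06, edgeR). ISO against Vehicle gave 0.21 ± 0.12 (adjusted p = 0.139), and without Vehicle replicate 1 it was 0.39 and called. ISO was 0.58 below SR-3420 when tested directly (log2 difference -0.58 ± 0.11, adjusted p = 0.000651, and -0.73 under total-count scaling). Of the Rps12 windows 98.1% are copied elsewhere in the genome. Rpl9 had 32.4, 36.4 and 29.8 CPM with SR-3420, at 1.30 ± 0.11 (2.46-fold, adjusted p = 2.76e-09), and Rpl12 had 29.7, 34.6 and 27.5, at 0.76 ± 0.18 (adjusted p = 0.00107). Rpl7a, a 60S protein, stood at 15.5, 13.4 and 12.4 CPM in Vehicle and 17.6, 23.9 and 17.0 with SR-3420, without overlap. It rose by 0.49 ± 0.14 (adjusted p = 0.00639), and lost its call at 0.32 without SR-3420 replicate 2.

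Rpl41 fell with SR-3420. It had 1124, 783 and 837 CPM in Vehicle and 658, 696 and 585 with SR-3420, so that all SR-3420 samples were lower, at -0.50 ± 0.10 (adjusted p = 0.00026, edgeR). With ISO its 732, 836 and 760 CPM overlapped Vehicle, at -0.24 ± 0.10 (adjusted p = 0.0516). That difference was called without Vehicle replicate 2 (-0.34), Vehicle replicate 3 (-0.30) or ISO replicate 2 (-0.30). Rpl41 was the 1 lower call that held in each of the 6 fits leaving out a Vehicle or SR-3420 sample. The number of lower calls was 4 without Vehicle replicate 1, 5 without SR-3420 replicate 1, 2 without SR-3420 replicate 3 and 18 without Vehicle replicate 3. Rpl34 shows the pull of Vehicle replicate 1, with 30.6, 11.98 and 9.35 CPM in Vehicle and 9.70, 11.6 and 8.96 with SR-3420. Its -0.81 ± 0.30 (adjusted p = 0.0274) became -0.09 without that library. Rps27l, the p53-inducible paralogue of Rps27, had 12.1, 11.8 and 17.3 CPM in Vehicle, 10.3, 8.04 and 7.34 with SR-3420 and 13.1, 16.5 and 14.6 with ISO. It fell with SR-3420 (-0.68 ± 0.21, adjusted p = 0.00913), a call lost without Vehicle replicate 3 (-0.49) or SR-3420 replicate 3 (-0.57).

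Compared directly, ISO gave 9 members higher and 1 lower than SR-3420, against 15.8% and 13.9% of all genes, with a median of 0.16. Under total-count scaling 1 was higher and 1 lower, against 6.38% and 25.0% of all genes. The 9 were Rpl13, Rpl15, Rpl17, Rpl29, Rpl7, Rps25, Rps26, Rps27l and Rpsa, and the lower one was Rps12, the call that held in every alternative run. Rps27l was 0.79 ± 0.21 higher with ISO (adjusted p = 0.00663, edgeR). Leaving out ISO replicate 2, SR-3420 replicate 3 or SR-3420 replicate 1 left 2, 3 or 5 higher calls, and leaving out SR-3420 replicate 2 gave 14.

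**Figure D2:**
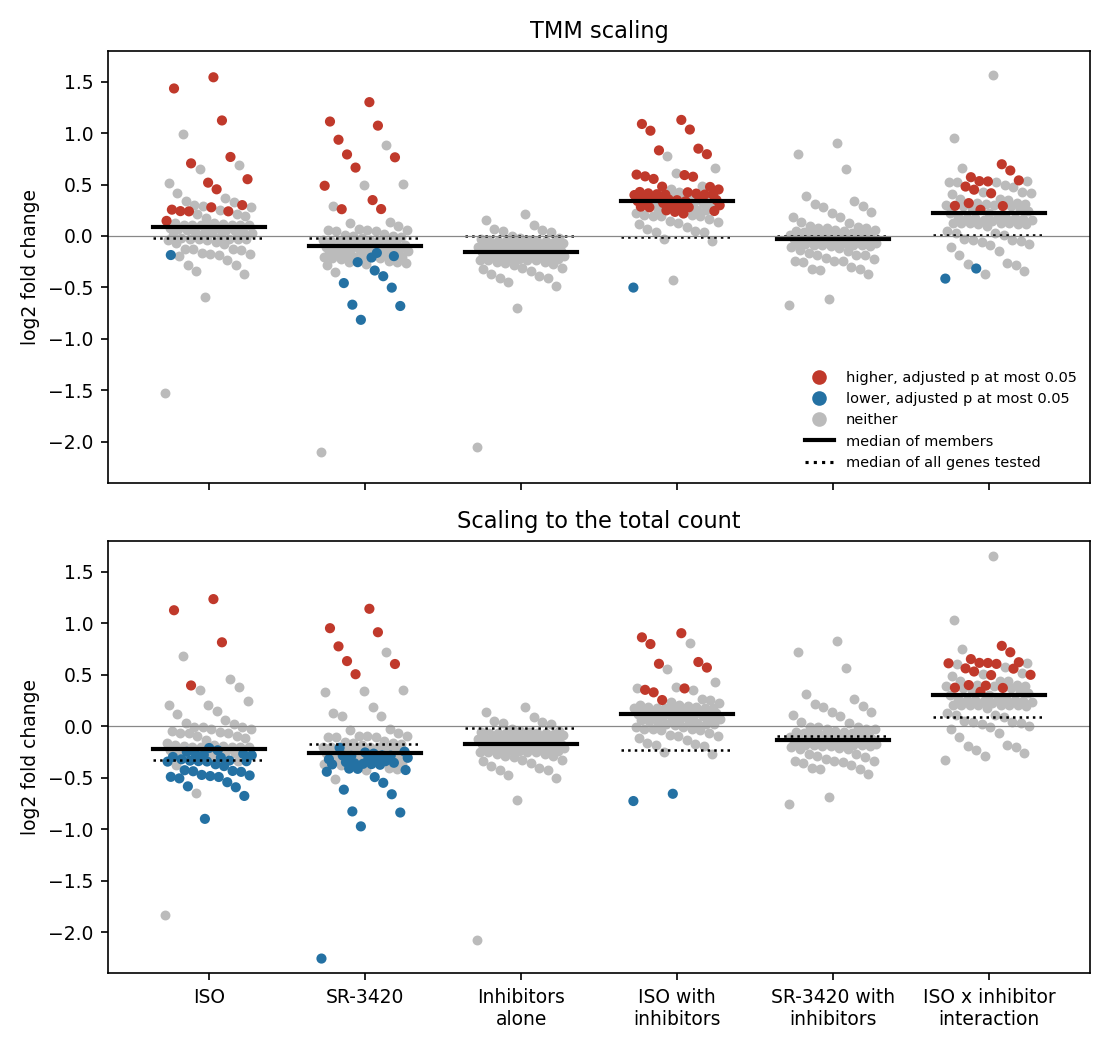
Log2 fold change of each of the 82 tested ribosomal protein genes (points) in 6 comparisons, under TMM scaling (top) and total-count scaling (bottom), with members called higher in red and lower in blue, and the medians of members (solid) and of all genes tested (dotted). Under TMM the points of Lipase Inh. + ISO against Lipase Inh. + Vehicle stand highest as a body (median 0.34), with 45 called higher and 1, Rpl22, lower.

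The inhibitors alone changed no member at the threshold. In Lipase Inh. + Vehicle against Vehicle edgeR called 0 members in either direction, as against 0.485% of all genes higher and 0.428% lower, and DESeq2 called 1 lower, Rpsa. At an unadjusted p under 0.05 there were 15 lower and 0 higher, but the share of all genes at that threshold was not counted. The median was -0.15, against 0.00 for all genes, and 75 of 82 members lay below 0, whereas 49.5% of all genes lay above 0. Without Vehicle replicate 1 the median was -0.08. Rpsa, a 40S protein also known as a laminin receptor precursor, had 344, 288 and 321 CPM in Vehicle and 258, 266 and 276 with inhibitors. Its samples did not overlap, at -0.25 ± 0.07, and its adjusted p was 0.14.

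With the lipases inhibited, ISO raised most of the ribosomal protein genes under TMM. The reference here is Lipase Inh. + Vehicle, whose member median was -0.15 against Vehicle, with 0 members called. By share of counts, Lipase Inh. + ISO (0.730% to 0.787%) lay within the range of Vehicle (0.723% to 0.877%). In Lipase Inh. + ISO against Lipase Inh. + Vehicle 45 of 82 members (54.9%) were higher and 1 was lower, against 29.4% and 28.3% of all genes. The median log2 fold change was 0.34 over members and -0.01 over all genes, and 78 members lay above the median of all genes. Most changes were small, with 4 members at least 2-fold higher, as were 5.43% of all genes. Under total-count scaling 10 were higher and 2 lower, against 16.2% and 42.1% of all genes, and the medians were 0.12 and -0.24. The members' median thus stood 0.35 above that of all genes under TMM. The 10 higher under both scalings included Rpl13a, Rpl28, Rpl37, Rpl7l1, Rpl9, Rplp0, Rplp2, Rps13 and Rps19bp1. Of the 45 calls 28 held in each fit that left out 1 sample of these groups.

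Under TMM the P stalk, which draws elongation factors to the ribosome, rose in all its parts. Rplp0 (mm9 chr5:116009476-116013738, plus strand) had 531, 622 and 564 CPM with inhibitors alone and 810, 795 and 789 with ISO added. The groups stood well apart, at 0.48 ± 0.07 or 1.39-fold (adjusted p = 6e-06, edgeR), and at 0.25 under total-count scaling (adjusted p = 0.0241). Rplp2 (chr7:148633549-148637241, plus strand) had 6.42, 7.83 and 6.59 CPM without and 14.9, 15.7 and 11.96 with ISO, without overlap, at 1.02 ± 0.17 or 2.03-fold (adjusted p = 2.92e-05). Rplp1 had 229, 256 and 215 CPM without and 266, 366 and 286 with ISO, at 0.39 ± 0.14 (adjusted p = 0.0246). That call was lost without Lipase Inh. + ISO replicate 2 (0.25) or Lipase Inh. + Vehicle replicate 1 (0.38) or 3 (0.34). Rplp1 was not called higher under total-count scaling. Rpl12, at the stalk base, had 14.7, 17.1 and 11.8 CPM without and 19.7, 25.5 and 20.3 with ISO. It rose by 0.60 ± 0.18 (adjusted p = 0.00854), lost its call without Lipase Inh. + ISO replicate 2 (0.48) or Lipase Inh. + Vehicle replicate 3 (0.46), and was 0.37 under total-count scaling (adjusted p = 0.0678).

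Other 60S members rose as well. Rpl13a, known for its release from the ribosome into an interferon-induced translation-silencing complex, had 48.0, 50.8 and 49.0 CPM with inhibitors and 70.7, 70.5 and 79.2 with ISO added. The 1.49-fold difference (0.58 ± 0.08, adjusted p = 3.07e-06, edgeR) was far above the spread and was 0.35 under total-count scaling. Rpl9 had 13.0, 12.4 and 13.9 CPM without and 30.6, 31.5 and 24.4 with ISO, at 1.13 ± 0.11 (adjusted p = 1.24e-08). Rpl3, which lies near the peptidyl transferase centre, rose by 0.37 ± 0.08 (adjusted p = 0.00074), and Rpl10, which joins the subunit late, by 0.37 ± 0.10 (adjusted p = 0.0048). Neither Rpl3 nor Rpl10 was called higher under total-count scaling. Rpl5 and Rpl11, which with 5S rRNA can bind Mdm2, were not called in either ISO comparison.

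Rpl22 went the other way. Its CPM was 131, 135 and 123 with inhibitors alone and 83.6, 92.6 and 98.2 with ISO added, the lowest 3 values among the 18 samples. It fell by 0.50 on the log2 scale (-0.50 ± 0.07, adjusted p = 5.76e-06, edgeR; -0.73 under total-count scaling), and was called lower under all alternatives run. Rpl22l1 had 11.96, 13.8 and 14.1 CPM without and 16.6, 20.0 and 18.9 with ISO, each ISO sample above each other, and rose by 0.48 ± 0.14 (adjusted p = 0.00641). It was not called higher under total-count scaling.

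In the 40S subunit 15 of 31 standard members were higher and 0 lower, with a median of 0.30, and in the 60S subunit 26 of 46 were higher and 1 lower, with a median of 0.36, beside 29.4% and 28.3% of all genes. Under total-count scaling the counts were 2 and 0 (median 0.08) in the 40S and 6 and 2 (median 0.14) in the 60S subunit. With that scaling 16.2% of all genes were higher and 42.1% lower. Rpsa had 383, 344 and 341 CPM with inhibitors and ISO, all above the 3 samples with inhibitors alone, at 0.41 ± 0.07 (adjusted p = 5.91e-05, edgeR; 0.19 and 0.0597 under total-count scaling). Rps6 had 159, 152 and 154 CPM without and 188, 196 and 190 with ISO, at 0.30 ± 0.06 (adjusted p = 9.1e-05). Rps26 had 112, 125 and 115 CPM without and 180, 149 and 143 with ISO, at 0.43 ± 0.09 (adjusted p = 0.000263). None of these 3 genes' groups overlapped. Rps3, which lines the mRNA entry channel, had 114, 120 and 112 CPM without and 140, 141 and 139 with ISO, at 0.28 ± 0.09 (adjusted p = 0.0141). Under total-count scaling Rps6, Rps26 and Rps3 were not called higher. Rps19, the gene most often mutated in Diamond-Blackfan anaemia, was at 0.25 ± 0.13 (adjusted p = 0.1) and, of the fits leaving out single samples, was called only without Lipase Inh. + Vehicle replicate 2 (0.35). Rps19bp1, taken in by its symbol alone and without copied windows, had 19.3, 19.7 and 21.1 CPM without and 31.1, 31.3 and 28.6 with ISO, and rose by 0.59 ± 0.10 (adjusted p = 2.62e-05).

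**Figure D3:**
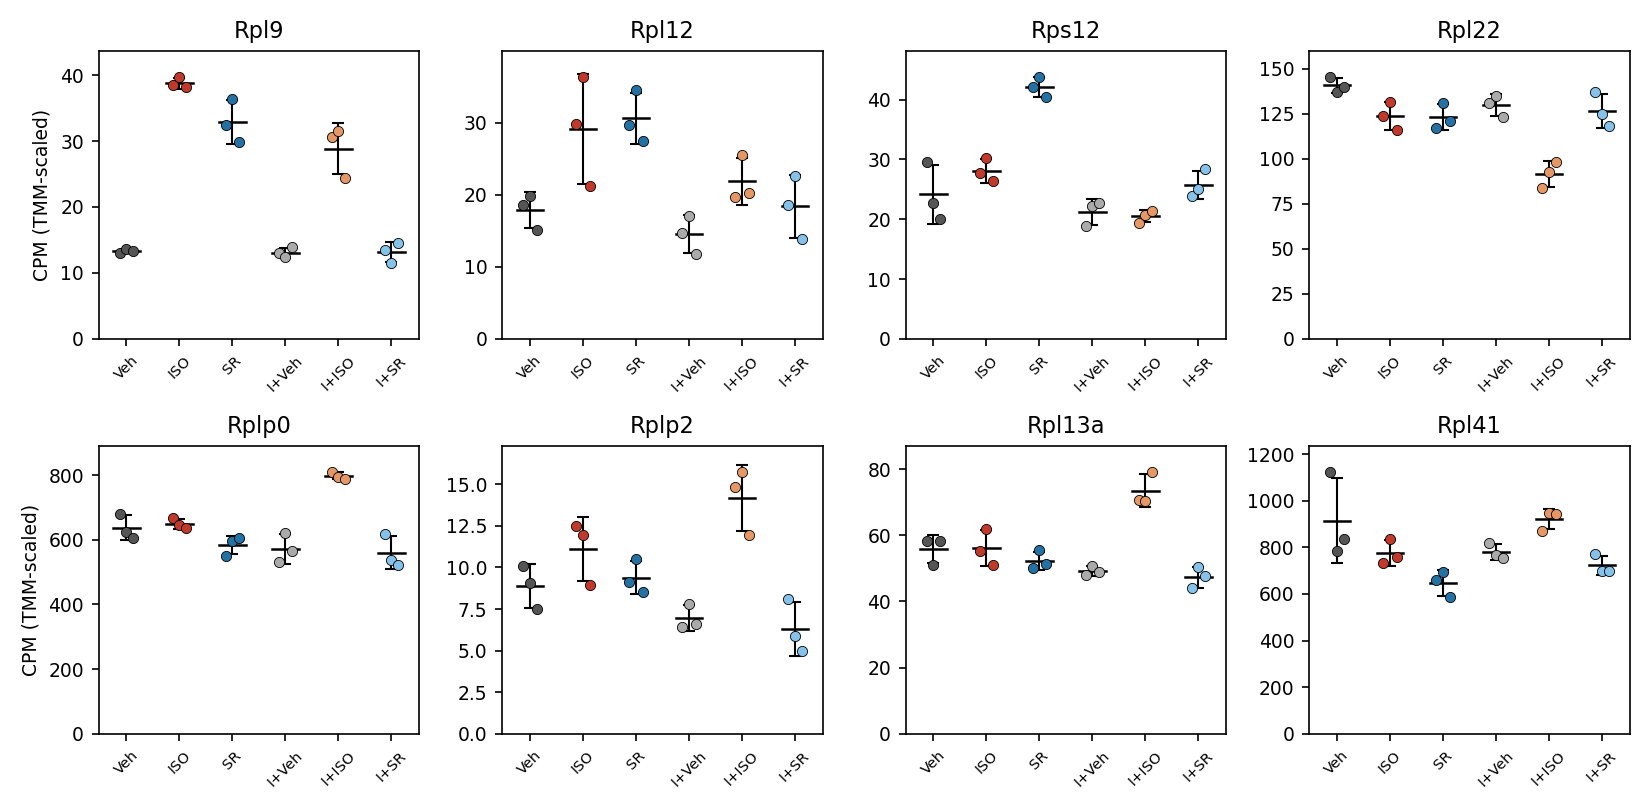
TMM CPM of 8 ribosomal protein genes in the 18 samples, with points for the replicates and lines and error bars for the mean and SD of each group of 3 (SR is SR-3420, and I+ marks the lipase inhibitors). Rplp0, Rplp2 and Rpl13a are highest in Lipase Inh. + ISO, Rps12 in SR-3420, and Rpl22 is lowest in Lipase Inh. + ISO (83.6 to 98.2).

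SR-3420 on top of the inhibitors changed no member at the threshold. EdgeR and DESeq2 each called 0, against 2.99% of all genes higher and 1.36% lower by edgeR. An unadjusted p under 0.05 was passed by 7 members (2 higher, 5 lower), and the share of all genes there was not counted. The median was -0.03. Rpl9, at 29.8 to 36.4 CPM with SR-3420 alone, had 13.4, 11.5 and 14.5 CPM here against 13.0, 12.4 and 13.9 with inhibitors alone, which overlap (0.04, adjusted p = 0.908). This group holds the shallow library rich in Lars2.

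Whether the inhibitors altered the response to ISO was tested as an interaction, the ISO effect with inhibitors minus that without. It was positive for 13 members and negative for 2, against 14.9% and 16.6% of all genes, with medians of 0.22 and 0.01. Under total-count scaling 18 were positive and 0 negative, while 29.1% of all genes were called in either direction, and all 13 were among the 18. They included Rpl13a, Rpl18, Rpl32, Rpl36al, Rpl41, Rpl7l1, Rplp0, Rplp2, Rps25, Rps3 and Rpsa. Leaving out single samples gave 6 to 20 positive calls. The lowest counts were 6 without Vehicle replicate 1, 7 without ISO replicate 1 or Lipase Inh. + Vehicle replicate 3 and 8 without Lipase Inh. + ISO replicate 2, and the highest was 20 without Vehicle replicate 3. The 5 members Rpl13a, Rpl36al, Rpl41, Rplp0 and Rps25 were called in each of these fits.

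Rplp0 had an interaction of 0.45 ± 0.10 (adjusted p = 0.00154, edgeR; 0.53 under total-count scaling) and Rpl13a of 0.57 ± 0.12 (adjusted p = 0.000657). For both, the values with ISO alone overlapped Vehicle: Rpl13a had 58.3, 50.9 and 58.4 CPM in Vehicle and 55.2, 61.96 and 51.2 with ISO. Rpl41 had 817, 767 and 753 CPM with inhibitors and 872, 949 and 944 with ISO added, without overlap, whereas without inhibitors its ISO and Vehicle samples overlapped, and its interaction was 0.48 ± 0.14 (adjusted p = 0.0123). Rpl18, a 60S protein, had an interaction of 0.64 ± 0.20 (adjusted p = 0.0202), but 1 Vehicle sample stood apart (93.7, 64.8 and 60.1 CPM). Without it the value was 0.41 and not called, and the call was also lost without ISO replicate 1 (0.60), Lipase Inh. + ISO replicate 2 (0.49) or Lipase Inh. + Vehicle replicate 3 (0.56). Both negative values, Rpl9 (-0.41 ± 0.15, adjusted p = 0.0447) and Rpl22 (-0.32 ± 0.10, adjusted p = 0.0247), were not called under total-count scaling (adjusted p of 0.172 and 0.184), and neither held when single samples were left out (-0.43 to -0.29 for Rpl9 and -0.31 to -0.25 for Rpl22 in the fits that lost the call).

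For SR-3420 the interaction was positive for 1 member, Rpl41 (0.39 ± 0.14, adjusted p = 0.0426, edgeR), and negative for 5 (Rpl36, Rpl7a, Rpl7l1, Rpl9 and Rps12), against 12.5% and 14.8% of all genes. The call of Rpl41 was lost in 8 of the 12 fits that left out a single sample, and without Vehicle replicate 1 its value was 0.22. Under total-count scaling 2 were positive and 1 negative, against 12.9% and 10.2% of all genes. The negative members were ones that SR-3420 alone had raised. The interaction subtracts that same effect, from the same samples, so a high value with SR-3420 alone lowers it by construction. Rpl9 had the largest value, -1.26 ± 0.16 (adjusted p = 6.59e-06), and was the 1 negative call that held in every alternative. Rps12 had 18.8, 22.2 and 22.7 CPM with inhibitors and 23.9, 25.1 and 28.4 with SR-3420 added, an interaction of -0.50 ± 0.17 (adjusted p = 0.0303; -0.44 and 0.0848 under total-count scaling). Over the 12 fits it ran from -0.68 to -0.38 and lost its call in 8.

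Members of low level had the higher changes with ISO alone. Splitting the 82 by counts per base, the lowest 27 had a median of 0.33 with ISO alone (7 higher, 0 lower), the middle 27 of 0.04 (5 and 1) and the highest 28 of -0.02 (3 and 0), beside 26.8% and 25.0% of all genes. Under total-count scaling these medians were 0.02, -0.27 and -0.32, with 3 higher and 2 lower, 1 and 14, and 0 and 17. With that scaling 12.3% of all genes were higher and 49.4% lower. With SR-3420 alone the medians were 0.06, -0.14 and -0.18. The 11 lower calls were 1, 4 and 6 of the 3 classes, beside 25.4% of all genes. With inhibitors and ISO the medians were 0.40, 0.28 and 0.34, with 12, 14 and 19 higher, beside 29.4% of all genes. Scaled by total counts, they were 0.18, 0.06 and 0.11, with 7, 2 and 1 higher, beside 16.2%. Over 78 members Spearman's rho of level with log2 fold change was -0.55 (Pearson's r -0.30) for ISO, -0.61 (-0.32) for SR-3420 and -0.25 (-0.12) for ISO with inhibitors. These are descriptions across genes measured in the same libraries. The part of the read ceiling of the abundant genes in this was not tested.

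**Figure D4:**
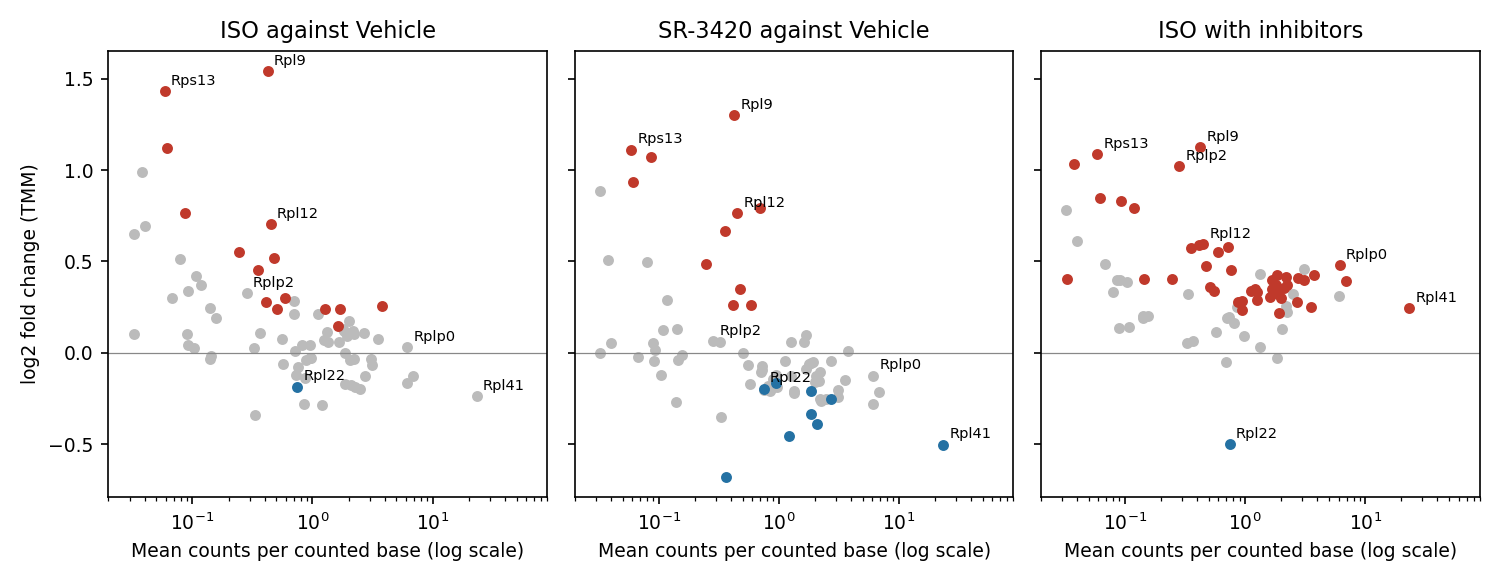
Log2 fold change under TMM against mean level in counts per counted base (log axis) for the 78 ribosomal protein genes with at least 100 counted bases, in 3 comparisons, with members called higher in red and lower in blue. With ISO alone low-level members have the higher values (rho -0.55), whereas with inhibitors and ISO values above 0 span the whole range of levels.

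Calls were made among members with many and with few copied windows. Of the 56 tested members with more than 50% of their windows copied, 32 were higher and 0 lower with inhibitors and ISO (median 0.37), and of the 24 others 11 were higher and 1 lower (median 0.31), beside 29.4% and 28.3% of all genes. Under total-count scaling the counts were 6 and 1, and 4 and 1, beside 16.2% and 42.1% of all genes. With ISO alone they were 10 and 0 (median 0.10) and 5 and 1 (median 0.06), beside 26.8% and 25.0% of all genes. Scaled by total counts, they were 2 and 21, and 2 and 10, beside 12.3% and 49.4%.

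Promoter letters were compared over all 78 RefSeq promoters of members, and then by call over the tested members with a promoter. The ETS-type motif CCGGAAG, searched on both strands, stood in 34.6% of the members' promoters against 8.86% of all. The CRE core TGACG, which is bound by cAMP-responsive factors, stood in 41.0% against 20.8%, and the GC box GGGCGG in 60.3% against 35.7%. Of 13 matched members called higher with ISO, 8 held TGACG, 8 GGGCGG and 3 CCGGAAG, and of the 49 others 23, 32 and 22 did. Of 32 called higher with inhibitors and ISO, 16 held TGACG, 25 GGGCGG and 13 CCGGAAG, and of the 30 others 15, 15 and 12 did. The pyrimidine run was found in 10 of the 13 and 43 of the 49, and in 26 of the 32 and 27 of the 30. These are matches of letters, with no test.

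The ribosomes of mitochondria have their own proteins, encoded by Mrpl and Mrps genes in the nucleus. Of 77 such genes tested, ISO gave 14 higher and 15 lower (median -0.04) and SR-3420 gave 1 higher and 45 lower (median -0.33), where the cytosolic set had 11 and 11. Of all genes 26.8% were higher and 25.0% lower with ISO, and 26.0% and 25.4% with SR-3420. With inhibitors and ISO 43 of the 77 (55.8%) were higher and 3 lower, close to the 54.9% of the cytosolic set, with a median of 0.29, beside 29.4% and 28.3% of all genes. The ISO interaction was positive for 26 and negative for 1 (median 0.34), against 14.9% and 16.6% of all genes. That of SR-3420 was positive for 19 and negative for 0, against 12.5% and 14.8%. Under total-count scaling ISO gave 1 higher and 46 lower, against 12.3% and 49.4% of all genes. SR-3420 gave 0 and 56, against 16.0% and 35.9%, and ISO with inhibitors 21 and 8, against 16.2% and 42.1%. The difference between the sets was not tested.

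**Figure D5:**
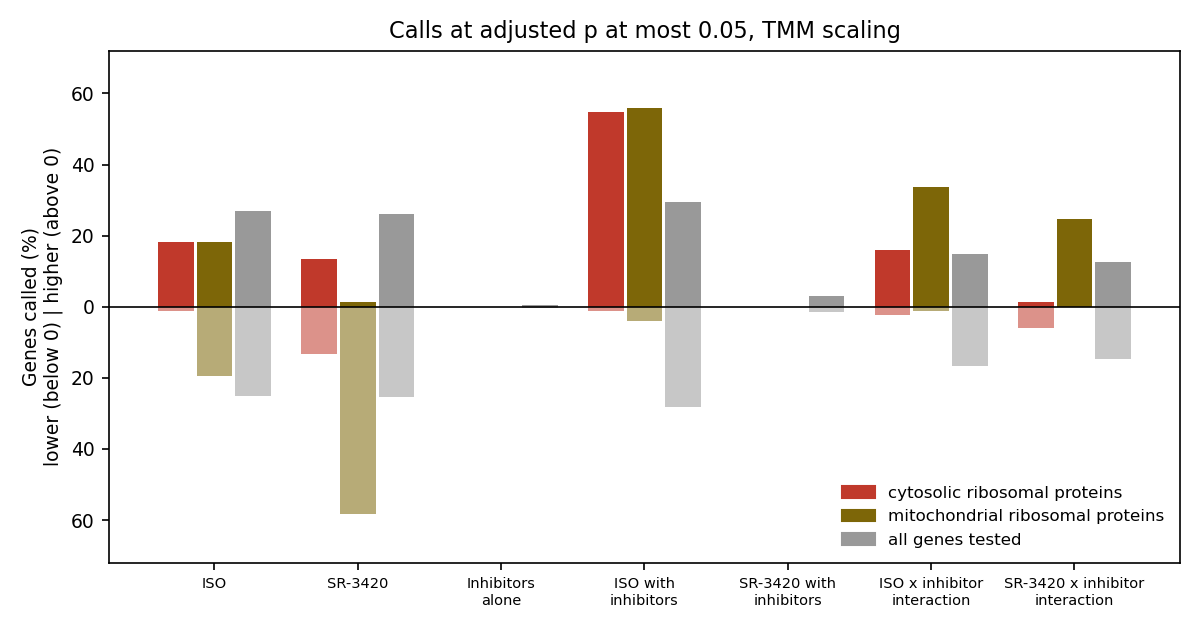
Percent of tested cytosolic (82) and mitochondrial (77) ribosomal protein genes and of all genes tested (grey) that were called higher (bars above 0) and lower (bars below 0) in 7 comparisons under TMM scaling. Both sets reach about the same share higher in Lipase Inh. + ISO (54.9% and 55.8%), while with SR-3420 alone 58.4% of the mitochondrial set and 13.4% of the cytosolic set were lower.

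Other genes of the translation machinery with a TOP motif moved as a mixed group. Of 22 in the table, ISO raised 7 and lowered 0 (median 0.10), SR-3420 raised 6 and lowered 1 (median -0.05), and ISO with inhibitors raised 13 and lowered 1 (median 0.32). Under total-count scaling the counts were 3 and 7, 3 and 7, and 6 and 3, with medians of -0.21, -0.21 and 0.09. With that scaling 12.3%, 16.0% and 16.2% of all genes were higher and 49.4%, 35.9% and 42.1% lower. Of all genes 26.8% were higher with ISO, 26.0% with SR-3420 and 29.4% with inhibitors and ISO under TMM, and 25.0%, 25.4% and 28.3% lower. With ISO the RNA-binding protein gene Hnrnpa1 rose by 0.94 (adjusted p = 3.7e-05, edgeR) and the initiation factor Eif3e by 0.83. With SR-3420 Eif3a, another initiation factor, rose by 1.05. With inhibitors and ISO Cnbp rose by 0.85 and Tpt1 by 0.55, and Eif4b was at -0.29. Fau and Gnb2l1, subunit genes outside the symbol rule, were each higher there under TMM (0.44 and 0.21, adjusted p of 0.0132 and 0.0167, edgeR). They are named after their values were seen. In that comparison total-count scaling moved the median of all genes from -0.01 to -0.24.

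A list of 11 factors that fold, escort or mature ribosomal proteins was also counted. Under TMM ISO and SR-3420 each raised 6 and ISO with inhibitors raised 8, with 0 lower. Beside this, 26.8%, 26.0% and 29.4% of all genes were higher and 25.0%, 25.4% and 28.3% lower. Under total-count scaling the list's counts were 3 higher and 1 lower, 5 and 1, and 5 and 2. The shares of all genes were then 12.3%, 16.0% and 16.2% higher and 49.4%, 35.9% and 42.1% lower. Grwd1, a chaperone of Rpl3, rose by 1.12 with ISO, by 0.85 with SR-3420 and by 1.23 with inhibitors and ISO. Ltv1, which acts in 40S maturation, rose by 0.94 with ISO, and Sbds, which acts late on the 60S subunit, by 0.67 with SR-3420.

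Regulators upstream of TOP translation moved in both directions. Of 18 genes of the mTORC1 and TOP pathway, ISO raised 9 and lowered 4, SR-3420 the same numbers, and ISO with inhibitors raised 8 and lowered 5, beside 26.8%, 26.0% and 29.4% of all genes higher and 25.0%, 25.4% and 28.3% lower. Scaled by total counts, the numbers were 7 and 8, 7 and 5, and 6 and 7. The shares of all genes were then 12.3%, 16.0% and 16.2% higher and 49.4%, 35.9% and 42.1% lower. Ddit4, an inhibitor of mTORC1, rose by 2.31 with ISO (adjusted p = 1.4e-12, edgeR) and by 2.98 with inhibitors and ISO. Eif4e, which binds the mRNA cap, rose by 1.21 and 1.43, and Eif4ebp1, its repressor, was at -0.43 and -1.17. Deptor, another mTORC1 inhibitor, was at -1.59 with inhibitors and ISO. Sesn2, also a restraint on mTORC1, rose by 1.72 with SR-3420, and its ISO interaction was -1.56.

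Of 6 tested transcription factors known for ribosomal protein or ribosome biogenesis genes, ISO and SR-3420 each raised 5 and lowered 0 under TMM. ISO with inhibitors raised 4 and lowered 1. Beside this, 26.8%, 26.0% and 29.4% of all genes were higher and 25.0%, 25.4% and 28.3% lower. Scaled by total counts, the numbers of factors were 0 and 1, 3 and 0, and 2 and 2. The shares of all genes were then 12.3%, 16.0% and 16.2% higher and 49.4%, 35.9% and 42.1% lower. Myc had 82.0, 80.4 and 74.2 CPM in Vehicle, 92.8, 109 and 98.8 after ISO and 160, 150 and 153 after SR-3420. Inhibited cells had 88.2, 83.1 and 90.8 CPM, and 54.8, 60.4 and 47.0 once ISO was added. Its ISO samples lay above Vehicle without inhibitors and below the unstimulated samples with them. The differences were 0.34 (0.04 under total-count scaling) and -0.70, with an interaction of -1.04 (adjusted p = 3.7e-07, edgeR). Gabpa, the DNA-binding part of an ETS factor, rose by 0.87 with inhibitors and ISO, with an interaction of 0.71.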

How the data were processed

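RNA of 18 samples was sequenced from TruSeq libraries. Per the study's methods and the submitters' notes, the authors aligned reads to mm9 with STAR 2.4.2a, kept 1 read per position and length with HOMER and counted them over RefSeq genes with iRNA-seq. Strand use and multiply mapped reads are not given in the sources used here. The authors deposited whole-number counts per gene, not normalized.

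Groups came from the sample labels. Genes with low counts were removed with filterByExpr (minimum count 10, total 15), and 1 edgeR 4.0.16 quasi-likelihood model (R 4.3.3, TMM, 6 group means, 12 residual degrees of freedom) gave 8 contrasts, adjusted over all 12156 genes by Benjamini-Hochberg. Calls are adjusted p of at most 0.05. The pipeline was tested on simulated data. Alternatives were total-count scaling, no or a stricter filter, DESeq2 1.42.0, only the groups compared, thinning to 4263755 counts, a replicate block and leaving out each sample. The members and lists were chosen with earlier results of these data known. Named members were a set of well-known genes plus the 3 largest calls each way at log2 CPM of at least 3. Promoters are RefSeq GRCm38.p6, used only for sequence. P-values measure the spread between 3 experiments of 1 cell line. Some genes are not reported here by name.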

Additional observations from a re-analysis of the deposited data

Results flagged for a closer look

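The effect of ISO differed with the lipase inhibitors, by the interaction term of edgeR's model at an adjusted p of at most 0.05, for these named members (log2 units, ISO effect with inhibitors minus without). It was 0.57 for Rpl13a, 0.64 for Rpl18, 0.48 for Rpl41, 0.45 for Rplp0, 0.70 for Rplp2, 0.41 for Rps3 and 0.29 for Rpsa, and it was -0.32 for Rpl22 and -0.41 for Rpl9. Of the 12 fits that left out a single sample, the call was lost in 4 for Rpl18, 7 for Rplp2, 2 for Rps3, 7 for Rpsa, 5 for Rpl22 and 9 for Rpl9, and in 0 for Rpl13a, Rpl41 and Rplp0.

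The effect of SR-3420 differed in the same way for 4 named members, at 0.39 for Rpl41, -0.61 for Rpl7a, -1.26 for Rpl9 and -0.50 for Rps12. Leaving out single samples lost the call of Rpl41 in 8 of 12 fits, of Rps12 in 8, of Rpl7a in 6 and of Rpl9 in 0. That comparison uses the shallow library rich in Lars2. Groups of 3 samples are too small for a check of single far-off samples, and none was made.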

How the results depend on the processing

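By total counts, ISO against Vehicle had 4 members higher and 33 lower (median -0.22), SR-3420 against Vehicle 7 and 32 (median -0.26), Lipase Inh. + ISO against Lipase Inh. + Vehicle 10 and 2 (median 0.12), and ISO against SR-3420 1 higher (median 0.015). The median for SR-3420 with inhibitors was -0.13, the ISO interaction had 0 negative calls, and the SR-3420 interaction 2 positive and 1 negative. With this scaling ISO turned sign for Rps6 (-0.16), Rps26 (-0.051), Rplp0 (-0.28), Rps19bp1 (-0.029) and Rpl13a (-0.30).

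Fitting only the groups compared gave 9 higher with ISO, and 0 positive and 2 negative SR-3420 interactions. Thinned to the shallowest library, ISO had 6 higher and 2 lower, SR-3420 3 and 6, ISO with inhibitors 27 higher, the ISO interaction 8 positive and 0 negative, the SR-3420 interaction 1 negative and ISO against SR-3420 2 higher. Without a filter ISO had 4 lower, the ISO interaction 1 negative and the SR-3420 interaction 2 positive. At 10 counts or more in every sample ISO had 3 lower. DESeq2 gave 2 lower with ISO, 1 lower with the inhibitors alone and 1 negative ISO interaction.

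Leaving out 1 sample at a time, calls higher and lower ranged from 10 to 16 and 0 to 7 for ISO (median 0.02 to 0.14), 8 to 12 and 2 to 18 for SR-3420 (median -0.15 to -0.03), 0 to 0 and 0 to 1 for the inhibitors alone (median -0.22 to -0.08), 31 to 44 and 1 to 1 for ISO with inhibitors (median 0.30 to 0.39), and 0 to 0 and 0 to 0 for SR-3420 with inhibitors (median -0.06 to 0.01). For the ISO interaction they ranged from 6 to 20 and 0 to 2 (median 0.19 to 0.25), for the SR-3420 interaction from 0 to 2 and 1 to 5 (median -0.03 to 0.13), and for ISO against SR-3420 from 2 to 14 and 1 to 1 (median 0.12 to 0.25). ISO had 7 lower without Vehicle replicate 3 and 0 without Vehicle replicate 1 or ISO replicate 1. The cause of these shifts was not tested.

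The labels do not say whether samples with the same replicate number came from 1 experiment. Their deviations from the group means correlated at 0.110 on average, against -0.0548 for samples of different numbers and groups. The averages were -0.0118 for number 1, 0.150 for number 2 and 0.190 for number 3, with a lowest pair of -0.114. The main fit did not use the number. With the replicate number as a block, ISO had 21 higher and 3 lower, SR-3420 12 and 17, ISO with inhibitors 52 and 1, the ISO interaction 24 positive, the SR-3420 interaction 2 positive and 6 negative, and ISO against SR-3420 14 higher.

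Of the named genes' values under the other settings, 800 kept their side of the threshold, 60 lost the call and 35 gained it. A further 5 turned sign with a call in either fit. With single samples left out these numbers were 640, 85, 25 and 0. Values called in neither fit were counted as kept even where their sign changed. Depth limits the low-level members such as Rps13 and Rpl37, which averaged 34.3 and 53.3 counts a library, and members under 100 counted bases.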
